A study of Mus musculus with 32 samples.

Results

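The respiratory chain and ATP synthase are built from subunits encoded in the nucleus and in the mitochondrial genome. The nuclear genes were taken from the array by symbol: names starting with Ndufa, Ndufb, Ndufc, Ndufs or Ndufv, the genes Sdha to Sdhd, names starting with Uqcr, with Cox followed by a digit from 4 to 8, or with Atp5. This gave 93 genes of the 24082 gene symbols on the array, each represented by its brightest probe. Of these, 89 had a probe above background on at least 50% of the arrays and were tested, of 16051 genes tested in all. By name they fell into 37 tested subunits of complex I, 7 complex I assembly factors (the Ndufaf genes, which the name pattern also takes), 4 of complex II, 8 of complex III, 15 of complex IV and 18 of complex V. Ndufa4, now known as a subunit of complex IV, is counted with complex I by its name. Not tested were Ndufa4l2 (above background on 12 of 32 arrays), Cox8b (1 array), Cox8c (1 array) and Cox7b2 (0 arrays). The complex V names included the pseudogene Atp5c1-ps and the genes Atp5s and Atp5sl, which are not subunits of the ATP synthase and have since been renamed Dmac2l and Dmac2.

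The cells were bone marrow-derived macrophages (BMDMs), grown from mouse bone marrow with M-CSF, prepared either from WT (C57BL/6) animals or from Ifnar1-/- animals, in which a chain of the type I interferon receptor is missing. Cells of each genotype were left untreated or received, for 6 h, zVAD, LPS, IFNb, LPS+zVAD, IFNb+zVAD, LPS+zVAD+Nec-1 or IFNb+zVAD+Nec-1, with 2 arrays for each of the 16 groups. LPS is the bacterial ligand of TLR4, used at 100 ng/mL by the labels, and IFNb (interferon beta) was used at 1000 U/mL by the labels, although the methods of the study name other doses. zVAD inhibits caspases, Nec-1 inhibits the kinase RIPK1, and LPS or IFNb given with zVAD is a stimulus for necroptosis, a caspase-independent lytic death driven by RIPK1, RIPK3 and MLKL. The labels number the replicates but do not say whether they came from separate mice or cultures, so p-values measure the spread between these arrays, which may be technical.

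Complex I (NADH dehydrogenase) passes electrons from NADH to ubiquinone and is the largest of the complexes, with a catalytic core of flavin and iron-sulphur subunits surrounded by accessory subunits. Complex II (succinate dehydrogenase) joins the citric acid cycle to the chain, complex III passes electrons on to cytochrome c, and complex IV (cytochrome c oxidase) reduces oxygen. Complex V, the ATP synthase, uses the proton gradient to make ATP. Macrophages stimulated with LPS are known to rely more on glycolysis, and succinate oxidation in these cells is known as a source of mitochondrial reactive oxygen species.

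The cell type labels were checked on 8 macrophage markers, all above background on all 32 arrays. The Ifnar1 probe read 14.2 and 14.2 on the untreated WT arrays and 11.9 and 11.9 on the untreated Ifnar1-/- arrays (log2 signal), and its difference between the genotypes was -2.05 with LPS and -0.12 with LPS+zVAD, where the WT arrays read 12.4 and 11.2, but whether this probe lies in the deleted part of the gene is not known here. The summed signal of 7 neutrophil markers, 6 of them above background on all arrays, was 11.3 to 47.6 on the WT arrays and 50.0 to 112 on the Ifnar1-/- arrays (linear signal in units of 1000), and that of 4 fibroblast markers, 3 of them above background on all arrays, was 0.127 to 0.639 and 0.663 to 2.40 in the same units. The part of either in any comparison of genotypes was not tested. Each of the 4 slides held all 8 treatments of a single genotype, so genotype and slide cannot be told apart, whereas every treatment was compared with untreated cells on the same slides. The library labelled Ifnar1-/- LPS+zVAD+Nec-1 replicate 2 stood apart from its partner: its Tnf signal was 10.0 against 15.9 and its Irg1 signal 9.8 against 18.1, so results that rest on it are given with and without it. In RNA of a whole culture, fewer cells of a type and less RNA per cell cannot be told apart.

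In WT cells given LPS+zVAD for 6 h, genes of complex I, its assembly factors and the Sdha and Sdhb subunits of complex II were lower than in untreated cells, whereas no subunit of complex III, IV or V was called lower by both ways of scaling the arrays. Ndufaf1, an assembly factor of complex I, fell 3.25-fold, Ndufs3, a core subunit of complex I, fell 2.92-fold, and Sdhb, the iron-sulphur subunit of complex II, fell 3.19-fold. These values are after quantile normalization, the method of the study, which gives every array the same distribution of signals, and the alternative shown beside it throughout subtracts each array's 75th percentile and leaves the shape of its distribution alone. With quantile normalization 71 of the 89 members (79.8%) were lower and 1 was higher in WT LPS+zVAD than in untreated WT cells (limma, adjusted p under 0.05), beside 32.7% of all genes tested that were lower and 18.3% that were higher. The 71 include Ndufaf5, whose call rests on 1 array (below). With the percentile shift 23 were lower and 7 higher, beside 25.4% and 21.5% of all genes. Called the same way by both scalings were 23 lower members (25.8%), beside 25.4% of all genes, and 1 higher member, beside 17.3%. The share called lower by both scalings was thus close to that of all genes and is not a result about the family as a whole. A fit on these 4 arrays alone called 37 members in place of 72.

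**Figure D1:**
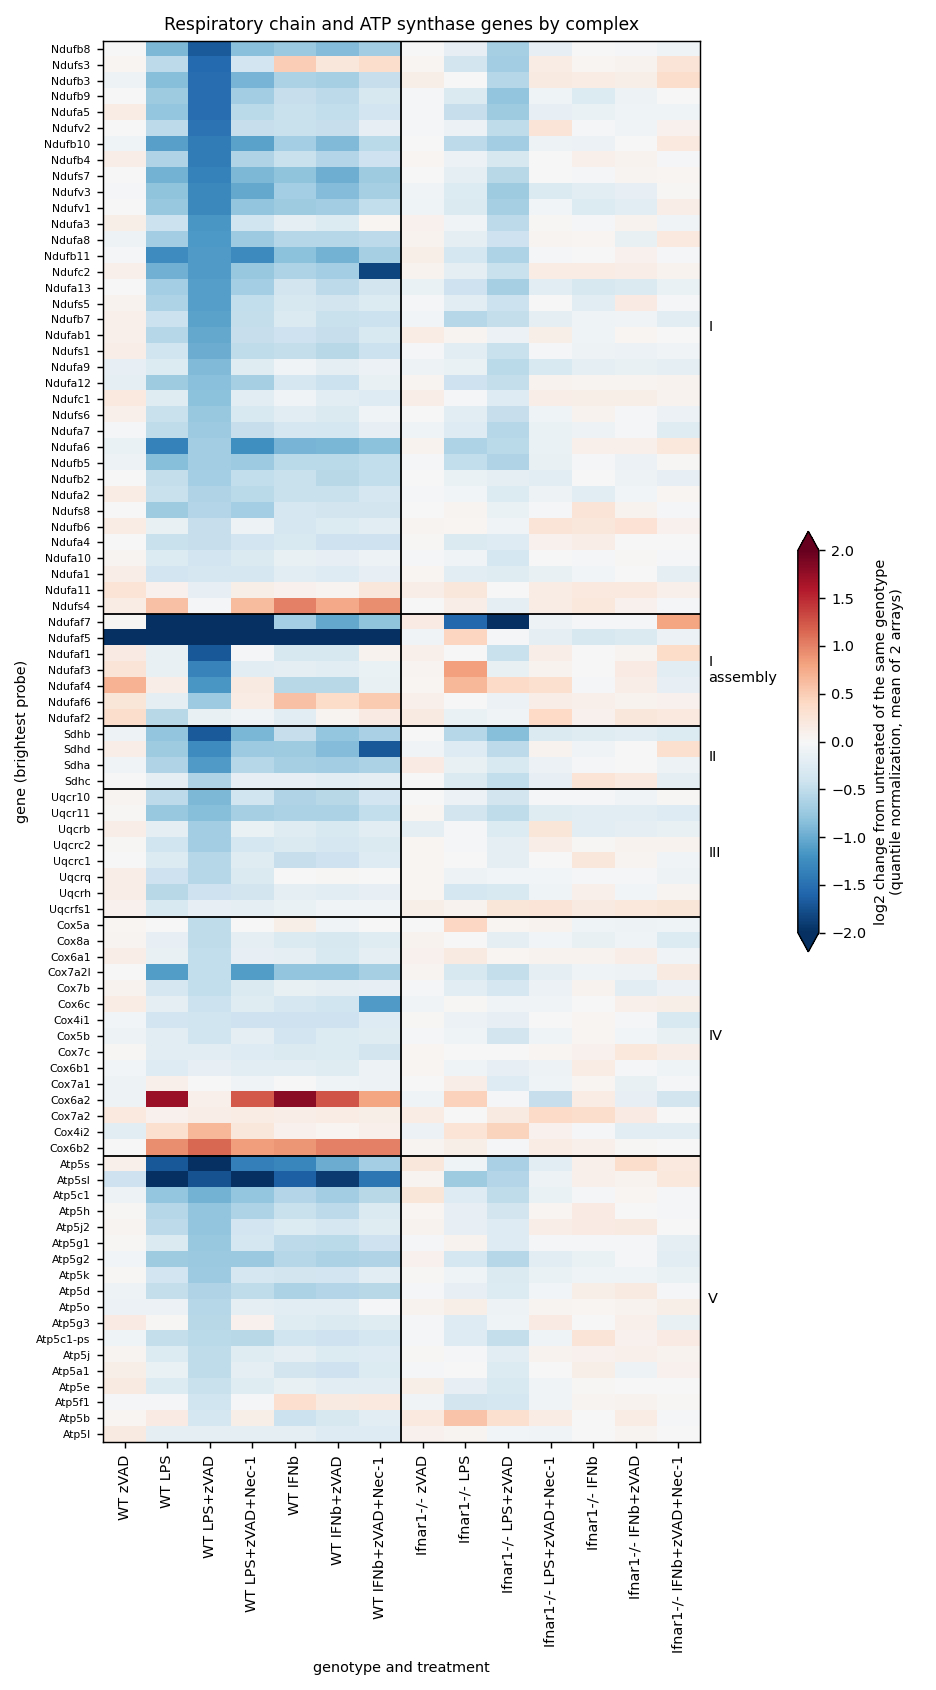
Log2 change of 88 of the tested genes (rows, grouped by complex) from untreated cells of the same genotype in the 7 treatments of WT cells (left) and Ifnar1-/- cells (right), after quantile normalization; blue is lower and red higher, with the colour scale ending at 2 in either direction. The WT LPS+zVAD column was the darkest for complex I, and the Ndufaf5 row reads low in all WT columns because of 1 high untreated array.

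The members' probes lay in the upper part of each array's signals, the part that the scalings treat differently. Before any normalization between arrays, the members' median log2 signal was 3.28 and 3.02 above the array's 75th percentile on the untreated WT arrays and 2.77 and 2.65 above it on the WT LPS+zVAD arrays, the lowest values of all 32 arrays. The bright end of the distribution moved the other way: the 99th percentile was 5.62 and 5.46 above the 75th on the untreated WT arrays and 6.30 and 6.41 above it on the WT LPS+zVAD arrays. Quantile normalization removes this widening, the percentile shift keeps it, and which of them gives the true change cannot be told from these arrays. Between the scalings the median change of all genes went from -0.15 to 0.12 in WT LPS+zVAD and from -0.08 to 0.08 in WT LPS, and 32 of the 89 members changed sign in WT LPS+zVAD. Relative to the median of all genes, the members' median change in WT LPS+zVAD was -0.57 with quantile normalization and -0.28 with the percentile shift.

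**Figure D2:**
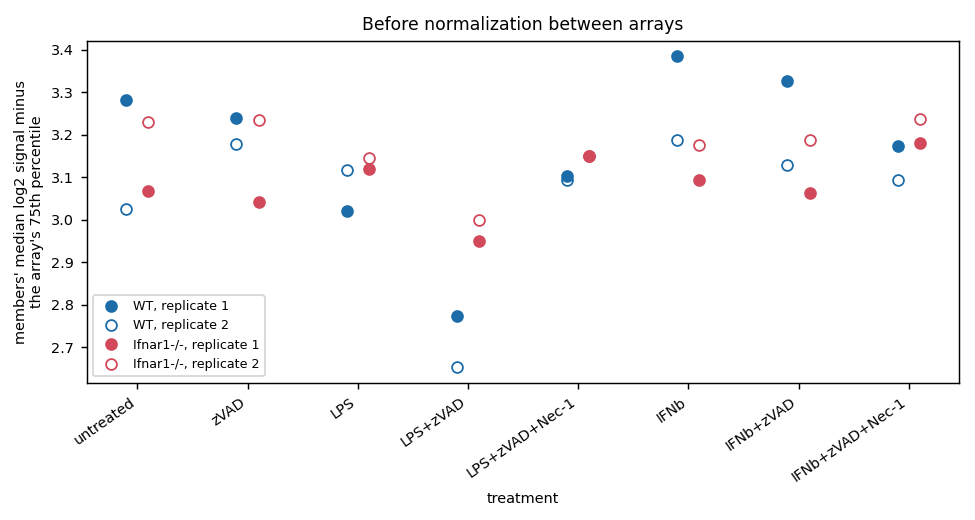
Median log2 signal of the members minus the 75th percentile of the same array, before normalization between arrays, for each of the 8 treatments; filled points are replicate 1, open points replicate 2, blue WT and red Ifnar1-/-. The WT LPS+zVAD arrays, at 2.77 and 2.65, were below all other arrays, and the Ifnar1-/- LPS+zVAD arrays were at 2.95 and 3.

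By complex, the fall in WT LPS+zVAD was deepest in complex I, its assembly factors and complex II on either scale. The counts by complex are to be read beside all genes tested. Of these 16051 genes, 5241 were lower with quantile normalization and 25.4% by both scalings. In complex I 33 of 37 subunits were called lower with quantile normalization and 14 by both scalings, with median changes of -1.07 and -0.47 for the quantile and the percentile scale. Ndufa4 was among the 33 and not among the 14. For the assembly factors 6 of 7 were called lower and 5 by both, with medians of -1.33 and -1.31. The 6 include Ndufaf5, whose call rests on untreated WT replicate 2 and whose change without that array was -0.03. In complex II all 4 subunits were called lower and Sdha and Sdhb by both, with medians of -1.19 and -0.58. The other complexes had smaller median changes, and in complexes IV and V the median changed sign between the scales. In complex III 6 of 8 were called lower with quantile normalization and 0 by both (medians -0.63 and -0.06), and in complex IV 6 of 15 were lower and 0 by both, with medians of opposite sign (-0.40 and 0.41). In complex V 16 of 18 were lower, and by both scalings only Atp5s and Atp5sl, the pair of names that are not subunits (medians -0.59 and 0.03). Differences between complexes were not tested. Within the slides, 84 of 89 members were below untreated on the slide of replicate 1 and 86 on that of replicate 2 (quantile normalization). All 37 genes counted with complex I were below it on each. By the group means, 8823 of 16051 genes were below untreated on this scale. With the percentile shift 32 of the 89 members, 5 of them in complex I, changed sign.

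**Figure D3:**
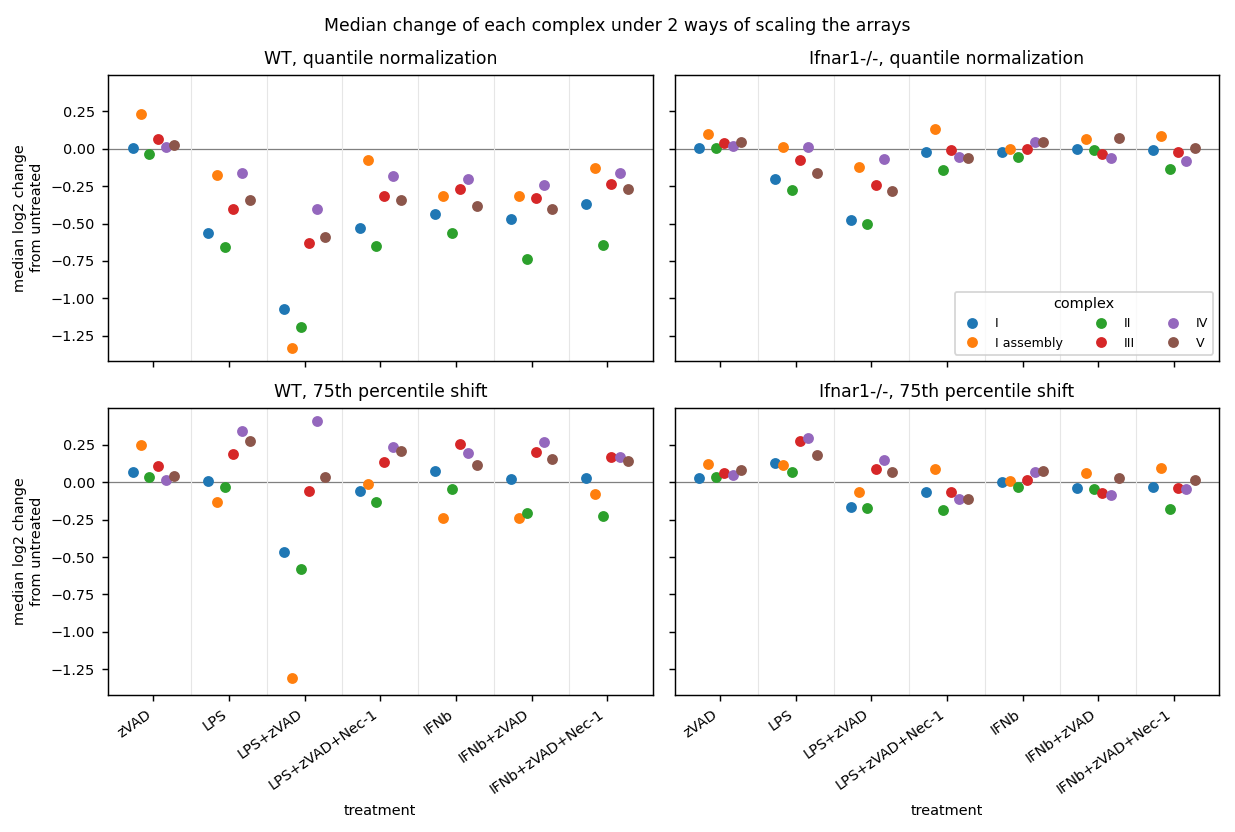
Median log2 change from untreated cells of each complex (colours) in each treatment, for WT (left) and Ifnar1-/- (right), with quantile normalization (top) and the 75th percentile shift (bottom). In WT LPS+zVAD complex I, its assembly factors and complex II were below 0 on both scales, and complex IV changed from -0.40 to 0.41.

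**Figure D4:**
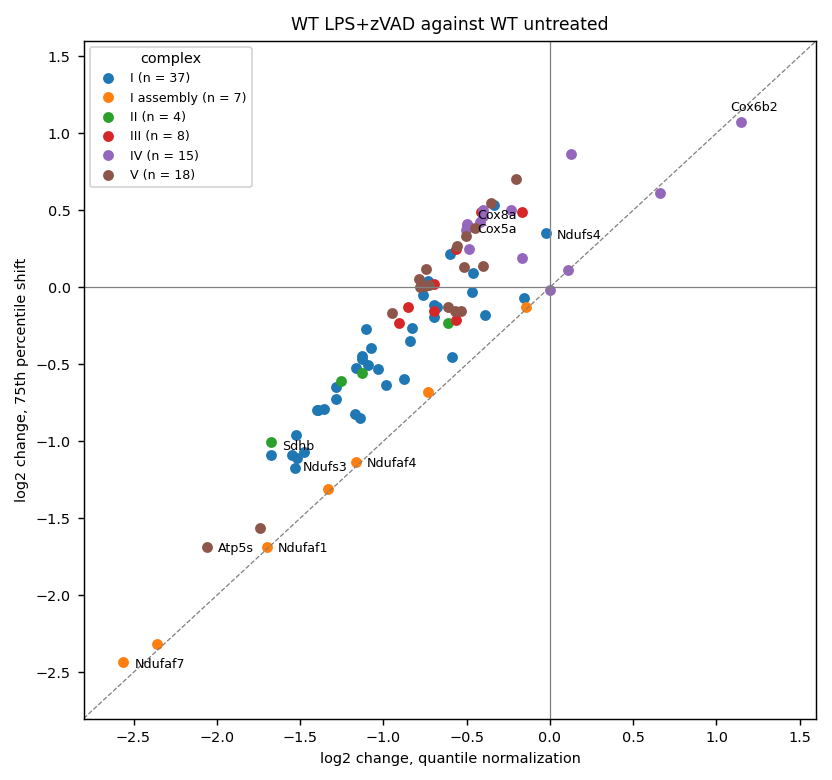
Log2 change of each tested member in WT LPS+zVAD against untreated WT cells with quantile normalization (horizontal axis) and with the 75th percentile shift (vertical axis), coloured by complex; the dashed line marks equal values. Ndufaf1, Ndufaf4 and Ndufaf7 lay close to the line, and most subunits of complexes IV and V lay to the left of 0 and above or near 0.

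In the catalytic core of complex I, Ndufv1, Ndufv2, Ndufs1, Ndufs3 and Ndufs7 were lower in WT LPS+zVAD by both scalings, and Ndufs8 was not called (-0.59 with quantile normalization and -0.46 with the percentile shift). The nuclear core subunits had a median change of -1.28 on the quantile scale and -0.79 on the percentile scale. Ndufs3, which lies in the arm of the complex that holds the iron-sulphur clusters, read 14.95 and 14.72 (log2 signal, replicates 1 and 2) in untreated WT cells and 13.67 and 12.90 in LPS+zVAD, a change of -1.55 (SE 0.19, limma adjusted p = 1.86e-06) with quantile normalization and -1.09 (adjusted p = 0.000327) with the percentile shift. Of all genes, 44% had both LPS+zVAD arrays below both untreated ones on the quantile scale. Ndufs3 was among these, and replicate 2 of LPS+zVAD was its lower array. Its probe lay on chromosome 2 at chr2:90734793-90734852 on the minus strand (mm9, from the array annotation, which names no exon or UTR). Ndufs1, the largest core subunit, read 13.88 and 13.85 untreated and 12.89 and 12.87 with LPS+zVAD, a change of -0.99 (SE 0.14, adjusted p = 1.11e-05) and -0.64 with the percentile shift. Ndufv1, which binds FMN and NADH, changed by -1.28 (SE 0.18, adjusted p = 7.24e-06) and by -0.72 with the percentile shift. Among the accessory subunits Ndufa5, Ndufa8, Ndufa9, Ndufb3, Ndufb4, Ndufb8, Ndufb9 and Ndufb10 were lower by both scalings, and the deepest fall on the quantile scale was that of Ndufb8, from 15.59 and 15.45 to 14.19 and 13.51 (change -1.67, SE 0.20, adjusted p = 1.62e-06, and -1.09 with the percentile shift, adjusted p = 0.000711). Ndufb8 is a membrane arm subunit that is widely used as a marker of assembled complex I.

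The assembly factors, which help to build complex I and do not stay in it, changed by nearly the same amount on either scale. Their probes were dimmer, with a mean log2 signal of 10.60 and 11.26 on the untreated WT arrays against 14.66 and 14.58 for complex I. The scalings treat the bright signals differently (above), and the part of signal level in this was not tested. Ndufaf1 (probe at chr2:119481208-119481267, minus strand, mm9), part of the complex that assembles the membrane arm, read 11.39 and 11.43 in untreated WT cells, 10.97 and 11.53 with LPS, 11.55 and 11.58 with zVAD, and 9.66 and 9.76 with LPS+zVAD. It was thus near its untreated level with either agent alone and below every other WT group with both. Its change in LPS+zVAD was -1.70 (SE 0.17, adjusted p = 1.28e-07) and -1.69 with the percentile shift (adjusted p = 1.04e-05). Ndufaf4, an early assembly factor, went from 10.53 and 10.48 to 9.34 and 9.34 (change -1.17, SE 0.23, adjusted p = 0.000282, and -1.13 with the percentile shift). Ndufaf3, its partner, changed by -1.33 (SE 0.33, adjusted p = 0.00209) and by -1.31 with the percentile shift. Ndufaf7, a methyltransferase that acts in complex I assembly, showed a different pattern: it was low with LPS whether or not zVAD was present, at 11.05 and 11.01 untreated, 8.29 and 8.83 with LPS and 8.36 and 8.58 with LPS+zVAD, a fall of 5.56-fold with LPS (adjusted p = 1.93e-05) and 5.9-fold with LPS+zVAD (adjusted p = 5.89e-06). Ndufaf5 was called lower in all WT groups where it was called, but these calls rest on untreated WT replicate 2, which read 14.27 where the other 31 arrays read 8.68 to 10.23, and without that array the change was -0.24 with IFNb and -0.03 with LPS+zVAD.

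**Figure D5:**
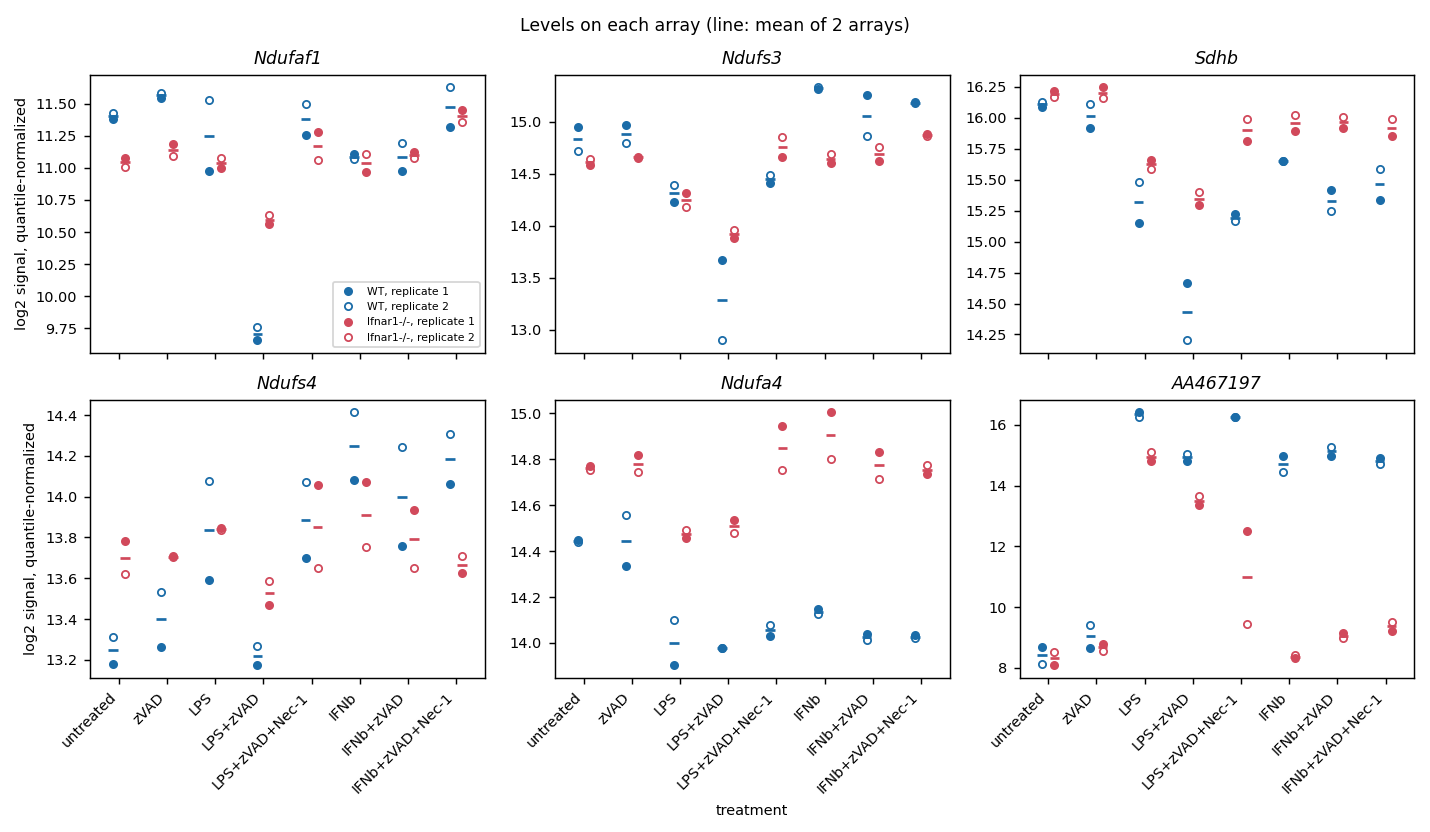
Quantile-normalized log2 signal of Ndufaf1, Ndufs3, Sdhb, Ndufs4, Ndufa4 and AA467197 on each of the 32 arrays by treatment; filled points are replicate 1, open points replicate 2, lines the mean of 2 arrays, blue WT and red Ifnar1-/-, and each panel has its own vertical scale. Ndufaf1 was lowest in WT LPS+zVAD at 9.66 and 9.76, and AA467197 rose from 8.70 and 8.12 in untreated WT cells to 16.42 and 16.27 with LPS.

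All 4 subunits of complex II are nuclear, so the whole complex is in view. Sdhb (probe at chr4:140535052-140535108, plus strand, mm9) read 16.09 and 16.13 in untreated WT cells, 15.15 and 15.48 with LPS, and 14.66 and 14.21 with LPS+zVAD. On this quantile scale it stepped down from untreated to LPS to LPS+zVAD with no overlap between the arrays of these groups. Of all genes, 38.9% lay below untreated with LPS without overlap, and 35% lay below LPS with LPS+zVAD. With the percentile shift Sdhb read 15.89 and 15.92 untreated, 15.49 and 15.96 with LPS and 15.00 and 14.80 with LPS+zVAD. There the LPS arrays overlapped the untreated ones, and only LPS+zVAD lay apart. Its change in LPS+zVAD was -1.67 (SE 0.16, adjusted p = 1.01e-07), and -1.01 with the percentile shift (adjusted p = 0.000916). Sdha, the flavoprotein subunit that oxidises succinate, read 15.03 and 14.91 untreated and 14.02 and 13.67 with LPS+zVAD, a change of -1.13 (SE 0.15, adjusted p = 3.38e-06) and of -0.56 with the percentile shift (adjusted p = 0.0152). The membrane anchors were called with quantile normalization alone: Sdhc changed by -0.61 (adjusted p = 0.00914, with the percentile shift -0.23, adjusted p = 0.393) and Sdhd by -1.26 (adjusted p = 0.00545, with the percentile shift -0.61, adjusted p = 0.235). With LPS alone Sdhb changed by -0.79 with quantile normalization (adjusted p = 0.000596) and -0.18 with the percentile shift, and Sdha changed sign, from -0.60 to 0.03. In WT IFNb+zVAD+Nec-1, Sdhd read 12.81 on replicate 1 and 14.67 on replicate 2.

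Promoters of these genes are known for binding sites of NRF1, ETS factors such as GABP, SP1 and YY1, so the sequence from 250 bases before to 50 bases after each RefSeq start (GRCm38.p6) was searched on both strands for short cores. Of the 93 members 76 had such a sequence, of 27025 genes in all. The NRF1 core GCGCATGCG was found in 13.2% of the members' promoters (10 genes) and in 1.95% of all promoters, the ETS core CCGGAAG in 22.4% (17 genes) and 9.93%, the YY1 core AAGATGGC in 14.5% (11 genes) and 3.19%, the SP1 core GGGCGG in 44.7% (34 genes) and 38.2%, the ERR core TCAAGGTCA in 2.63% (2 genes) and 0.466%, and the CRE core TGACGTCA in 5.26% (4 genes) and 2.03%. The following stretches show these cores in promoters of members that the results turn on, with the core, or its reverse complement, in capitals and the strand being that of the gene.
Ndufaf4 (NRF1 core, chr4:24897960-24897989, plus): ccagatgtctGCGCATGCGcctgtgcggaa
Ndufaf1 (SP1 core, chr2:119663040-119663069, minus): atttacatacggGGGCGGggtacaagaagc
Ndufs3 (ETS core, chr2:90904730-90904759, minus): cccgcgtccgcCCGGAAGaagagtcactgc
Sdhb (SP1 core, chr4:140961155-140961184, plus): cccttccctctcCCGCCCctcagactccag
Sdhd (ETS core, chr9:50603877-50603906, minus): ccgtctcctgcCTTCCGGttcacgcttcag
Cox6a1 (NRF1 core, chr5:115349101-115349130, minus): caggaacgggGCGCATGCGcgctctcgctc
Atp5sl (YY1 core, chr7:25619429-25619458, plus): cgttacctggcAAGATGGCggcgcccagag
The promoters of the members called lower by both scalings in WT LPS+zVAD, 20 of which had a sequence, held the ETS core in 15%, the NRF1 core in 15%, the SP1 core in 60% and the YY1 core in 20%, and those of the other 54 tested members with a sequence in 25.9%, 13%, 38.9% and 13%. In the Ndufs3 stretch an SP1 core on the other strand overlaps the ETS core. A match is a string of letters and says nothing about binding in these cells.

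In complex III the core proteins Uqcrc1 and Uqcrc2 and the small subunits changed little on the percentile scale. Uqcrc1 changed by -0.56 in WT LPS+zVAD with quantile normalization (adjusted p = 0.00719) and by -0.21 with the percentile shift (adjusted p = 0.35), and Uqcrh, the hinge protein, changed by -0.55 with LPS (adjusted p = 0.0172) and by 0.03 with the percentile shift. In WT LPS+zVAD 0 of the 8 members were called the same way by both scalings, beside 25.4% of all genes lower and 17.3% higher. Uqcrfs1, the Rieske iron-sulphur protein, was higher in WT LPS+zVAD with the percentile shift alone.

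Complex IV holds several subunits with paralogs used in different tissues, and these behaved differently from each other. Of the Cox6a pair, Cox6a1, the form of most tissues, read 17.53 and 17.44 in untreated WT cells and 17.04 and 16.94 with LPS+zVAD, a change of -0.50 with quantile normalization (adjusted p = 0.00453) that became 0.41 with the percentile shift. Cox6a2, the heart and skeletal muscle form, read 8.91 and 8.78 untreated, 10.88 and 10.27 with LPS and 10.92 and 10.38 with IFNb. It rose in both WT groups with no overlap, by 1.73 with LPS (SE 0.39, 3.32-fold, adjusted p = 0.00141, and 1.75 with the percentile shift) and by 1.81 with IFNb (SE 0.39, 3.5-fold, adjusted p = 0.00124, and 1.79 with the percentile shift). Of all genes, 30.2% lay above untreated without overlap in WT LPS and 25.7% in WT IFNb. In Ifnar1-/- cells Cox6a2 read 8.15 and 8.61 untreated, 8.67 and 9.02 with LPS and 8.43 and 8.63 with IFNb. When zVAD was added to LPS in WT cells Cox6a2 went to 9.73 and 8.17, a fall of 1.63 from LPS alone on the log2 scale (adjusted p = 0.00282, and -1.64 with the percentile shift). Of the Cox6b pair, Cox6b2, the testis form, rose from 9.10 and 8.57 to 10.34 and 9.63 with LPS+zVAD (change 1.15, SE 0.45, adjusted p = 0.0388, and 1.08 with the percentile shift, adjusted p = 0.0489). This call was lost without untreated WT replicate 2 or without WT LPS+zVAD replicate 1. Cox6b1 changed by -0.16 and was not called.

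The other paralogs of complex IV gave smaller changes in WT LPS+zVAD. Cox4i1, the common form of subunit 4, changed by -0.40 (adjusted p = 0.0861) and Cox4i2, the form known from lung, by 0.66 (adjusted p = 0.22). Cox8a changed by -0.50 (adjusted p = 0.00358) and by 0.39 with the percentile shift, while Cox8b and Cox8c were not tested. Cox7a1 changed by 0.00, and Cox7a2 by 0.13 (not called) and by 0.86 with the percentile shift (adjusted p = 0.00689). Cox7a2l, which links complexes III and IV in supercomplexes, moved differently from the other subunits of the complex: it read 16.81 and 16.73 untreated, 15.63 and 15.69 with LPS and 16.23 and 16.33 with LPS+zVAD. It was lowest with LPS (change -1.12, SE 0.17, adjusted p = 4.21e-05, and -0.59 with the percentile shift, adjusted p = 0.098) and rose by 0.63 when zVAD was added (adjusted p = 0.00732, and 0.99 with the percentile shift, adjusted p = 0.00806), a call that was lost without WT LPS+zVAD replicate 2.

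Ndufa4, now known as a subunit of complex IV but counted by name with complex I, and its paralog AA467197 went in different directions. AA467197, known as an LPS-induced gene of macrophages that encodes a protein like Ndufa4, does not match the name pattern and is no member. Ndufa4 read 14.45 and 14.44 in untreated WT cells, 13.90 and 14.10 with LPS and 13.98 and 13.98 with LPS+zVAD. Its change was -0.44 with LPS (adjusted p = 0.00846) and 0.13 with the percentile shift, and -0.46 with LPS+zVAD (adjusted p = 0.0045) and 0.09 with the percentile shift. AA467197 read 8.70 and 8.12 untreated, 16.42 and 16.27 with LPS, 14.97 and 14.44 with IFNb and 14.81 and 15.06 with LPS+zVAD in WT cells. This was a rise of 245-fold with LPS (log2 change 7.94, SE 0.56, adjusted p = 2e-08), of 78.6-fold with IFNb (adjusted p = 9.92e-08) and of 91.9-fold with LPS+zVAD (adjusted p = 3.54e-08). In Ifnar1-/- cells it read 8.09 and 8.54 untreated, 14.81 and 15.11 with LPS and 8.32 and 8.43 with IFNb, so that it rose 99.8-fold with LPS (adjusted p = 1.85e-06). The difference between the genotypes in its LPS change was -1.29 (adjusted p = 0.427).

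In complex V the catalytic head and the membrane part were lower with quantile normalization alone. Of all 16051 genes, 5241 were lower in WT LPS+zVAD with quantile normalization and 25.4% by both scalings. All 5 F1 head genes were called lower in WT LPS+zVAD and 0 by both scalings, with medians of -0.50 and 0.33, and 8 of the 10 genes of the membrane part and stalk were called lower and 0 by both, with medians of -0.65 and 0.08. Atp5b, the catalytic beta subunit, read 16.68 and 16.70 untreated and 16.32 and 16.35 with LPS+zVAD and was called in opposite directions, lower with quantile normalization (-0.36, adjusted p = 0.0435) and higher with the percentile shift (0.55, adjusted p = 0.0423). Cox5b of complex IV was the other such gene (-0.40 and 0.46). The genes Atp5g1, Atp5g2 and Atp5g3 encode the same mature c subunit of the rotor with different import sequences. They changed by -0.75, -0.75 and -0.56 with quantile normalization (adjusted p = 0.00376, 7.45e-05 and 0.0157) and by 0.01, 0.12 and 0.27 with the percentile shift, so each of the 3 was called lower on the first scale and was above 0 on the second. The names that are not subunits differed from the rest. The Atp5s probe was dim, with a mean log2 signal of 5.94 (SD 0.82) in WT LPS and 5.57 (SD 0.53) in WT LPS+zVAD. It was above background on both arrays of each group. Atp5sl, known as an assembly factor of complex I, read 13.23 and 13.46 in untreated WT cells, 10.19 and 11.45 with LPS, 11.49 and 11.95 with IFNb and 11.32 and 11.89 with LPS+zVAD. It was lower in every one of these groups, by 5.76-fold with LPS (log2 change -2.53, SE 0.31, adjusted p = 4.1e-06, and -2.29 with the percentile shift), with the largest spread between replicates in LPS. Atp5s changed by -1.69 with LPS (SE 0.39, adjusted p = 0.00189), a call lost without WT LPS replicate 1, and by -2.06 with LPS+zVAD (SE 0.39, adjusted p = 0.000214, and -1.68 with the percentile shift).

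With LPS alone or IFNb alone in WT cells, the direction of the family as a whole depended on the scaling. In WT LPS 44 members (49.4%) were lower and 2 higher with quantile normalization, beside 24.8% and 16.3% of all genes, but 3 were lower and 4 higher with the percentile shift, beside 18.5% and 18.6%, and the median change went from -0.44 to 0.10. Without WT LPS replicate 1 the count of members called with quantile normalization was 25 in place of 46. In WT IFNb 32 (36%) were lower and 2 higher, beside 21.6% and 13.7% of all genes, and with the percentile shift 3 and 4, beside 14.7% and 14.8%, with medians of -0.34 and 0.08. Without untreated WT replicate 1, untreated WT replicate 2 or WT IFNb replicate 2 this count was 19, 17 and 16 in place of 34, and with the replicate number as a block 47 were lower and 6 higher. The block fit called 4950 of 16051 genes lower and 2948 higher with IFNb. In either comparison, LPS or IFNb, 46 of the 89 members changed sign between the scalings. By both scalings 3 were lower and 2 higher in WT LPS, beside 17.9% and 15.4% of all genes, and 3 lower and 2 higher in WT IFNb, beside 14.2% and 12.9%.

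The members that kept their call with LPS or IFNb were few. Lower by both scalings with LPS were Ndufaf7, Atp5s and Atp5sl, and with IFNb Ndufaf5 (on the strength of 1 array, as above), Atp5s and Atp5sl. Higher by both scalings in both groups were Cox6a2 and Ndufs4. Ndufs4, an accessory subunit of the arm that oxidises NADH, whose loss is known to cause mitochondrial disease, was the 1 complex I subunit called higher with quantile normalization in WT LPS. It read 13.18 and 13.31 in untreated WT cells, 13.59 and 14.08 with LPS, 14.08 and 14.41 with IFNb and 13.17 and 13.27 with LPS+zVAD. On this quantile scale it was thus above untreated with LPS or IFNb and at the untreated level with LPS+zVAD. With the percentile shift the LPS+zVAD arrays, at 13.25 and 13.69, were above the untreated ones, at 13.01 and 13.23. Its rise was 2-fold with IFNb (SE 0.21 on the log2 scale, adjusted p = 0.00114, and 1.42 with the percentile shift, adjusted p = 0.00109) and 0.59 on the log2 scale with LPS (SE 0.21, adjusted p = 0.0327, and 1.07 with the percentile shift). Over 13 alternative settings and refits the rise with LPS was 0.34 to 1.07, and it was not called in 6 of them. Ndufs3 rose with IFNb on the percentile scale (1.01, adjusted p = 0.00127). With quantile normalization its change of 0.49 was not called (adjusted p = 0.0541), but it was called with the replicate block (adjusted p = 0.0231). Ndufa6, a small accessory subunit, was lowest with LPS at 13.09 and 13.46 against 14.54 and 14.71 untreated (change -1.35, SE 0.23, adjusted p = 0.000108, and -0.84 with the percentile shift, adjusted p = 0.0601), and it read 13.78 and 14.08 with LPS+zVAD.

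The inhibitors were then compared within the stimulated cells. With zVAD alone 0 members were called in WT cells by limma (3 at an unadjusted p under 0.05), beside 0.00623% of all genes, and 0 in Ifnar1-/- cells (0 at an unadjusted p under 0.05), beside 0% of all genes. Added to LPS in WT cells, zVAD lowered 30 members (33.7%) and raised 3 with quantile normalization, beside 21.7% and 12.8% of all genes, and 19 (21.3%) were lower by both scalings, beside 19.1% of all genes, a share near that of all genes. Of these 19, 13 were complex I subunits, 3 were the assembly factors Ndufaf1, Ndufaf3 and Ndufaf4, and the others were Sdha, Sdhb and Cox6a2. Ndufaf1 changed by -1.54 (adjusted p = 1.58e-06) and -1.67 with the percentile shift, Ndufs3 by -1.02 (adjusted p = 0.000366) and -1.18, and Sdhb by -0.88 (adjusted p = 0.000276) and -0.82. In complexes III and V 0 members were lower by both. The count of 33 rested on single arrays and on the shared estimate of spread: it was 10 when replicate 2 of WT LPS+zVAD was left out, 14 without WT LPS replicate 2, and 1 in a fit on the 4 arrays compared alone.

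Adding Nec-1 to LPS+zVAD in WT cells raised single members, among them Ndufaf1 and Ndufs3, at a share close to that of all genes when both scalings were required. By quantile normalization 34 members (38.2%) were higher and 1 lower, beside 18.7% and 9.76% of all genes, and 14 (15.7%) were higher by both scalings, beside 15.4% of all genes, which is not a result about the family. These were 8 complex I subunits, the assembly factors Ndufaf1, Ndufaf3, Ndufaf4 and Ndufaf6, Sdha and Cox6a2. Ndufaf1 read 11.26 and 11.5 with Nec-1, close to its untreated 11.39 and 11.43, and its change was 1.67 with quantile normalization and 1.75 with the percentile shift. Ndufs3 changed by 1.16 and 1.21, Ndufa5 by 0.98 and 1.03, and Ndufaf4 by 1.34 and 1.36. Cox7a2l went the other way, by -0.63 and -1.12. This comparison shares the LPS+zVAD arrays with the one before it, so the pair are not independent. The count of 35 was 9 when replicate 2 of WT LPS+zVAD was left out, 22 or 13 without WT LPS+zVAD+Nec-1 replicate 1 or 2, and 0 in a fit on the 4 arrays compared alone. Against untreated cells, WT LPS+zVAD+Nec-1 had 39 members (43.8%) lower and 2 higher, beside 25% and 16% of all genes, a count that was 26 in place of 41 without its replicate 1.

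With IFNb in place of LPS, 0 members were called when either inhibitor was added. In WT IFNb+zVAD 37 members (41.6%) were lower and 2 higher than in untreated cells, beside 23.1% and 14.4% of all genes, and in WT IFNb+zVAD+Nec-1 24 (27%) were lower and 1 higher, beside 18.4% and 13.3%. For zVAD added to IFNb in WT cells the count was 0 by limma (0 at an unadjusted p under 0.05), beside 0% of all genes, and for Nec-1 added to IFNb+zVAD it was 0 (5 at an unadjusted p under 0.05), beside 0%. Whether these steps differ from those in the LPS series was not tested. In the replicate block fit given below for IFNb+zVAD+Nec-1, 4438 of 16050 genes were lower and 2950 higher. The IFNb+zVAD count was 22, 23 and 18 in place of 39 without untreated WT replicate 1, untreated WT replicate 2 and WT IFNb+zVAD replicate 2. The IFNb+zVAD+Nec-1 count was 14, 16 and 13 in place of 25 without untreated WT replicate 2 and its own replicates 1 and 2, and with the replicate block it was 39 lower and 3 higher.

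In Ifnar1-/- cells fewer members were called. With LPS 5 (5.62%) were lower and 2 higher, beside 13.9% and 10.9% of all genes, a share of lower members below that of all genes. The lower ones included Ndufaf7 (9.5 and 9.66 against 10.99 and 11.31 untreated, change -1.57, SE 0.35, adjusted p = 0.00281, and -1.50 with the percentile shift) and Sdhb (-0.57, adjusted p = 0.0131, and -0.20 with the percentile shift). The higher ones were Ndufaf4 (0.66, adjusted p = 0.0417, and 0.76) and Atp5b (0.58, adjusted p = 0.00582, and 0.84). The count of 7 fell to 2 without either untreated Ifnar1-/- array and to 3 without either Ifnar1-/- LPS array, and with the replicate block 16 were lower and 4 higher. With the block 3487 of 16051 genes were lower and 2706 higher with LPS, and 4164 and 2740 with LPS+zVAD. With LPS+zVAD 26 members (29.2%) were lower with quantile normalization, beside 17.2% of all genes, 20 of them in complex I. By both scalings only Ndufaf7 was lower, beside 11.3% of all genes. Ndufaf7 read 8.97 and 9.30 (4.04-fold lower, adjusted p = 0.00037, and -1.97 with the percentile shift, adjusted p = 0.000802). Ndufaf1 changed by -0.45 and was not called (adjusted p = 0.051), and Sdhb changed by -0.85 (adjusted p = 0.00076) and by -0.45 with the percentile shift (adjusted p = 0.158). The count of 26 was 7 without untreated Ifnar1-/- replicate 2, 7 and 14 without Ifnar1-/- LPS+zVAD replicates 1 and 2, and 43 lower and 2 higher with the replicate block.

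No member was called with IFNb in cells without its receptor chain. In Ifnar1-/- IFNb the count was 0 by limma, beside 0% of all genes, in IFNb+zVAD 0, beside 0.00623%, and in IFNb+zVAD+Nec-1 0, beside 1.76%, and at an unadjusted p under 0.05 the counts were 0, 0 and 2. In Ifnar1-/- LPS+zVAD+Nec-1 0 were called by limma (3 at an unadjusted p under 0.05), beside 1.31% of all genes, and without replicate 2 of that group, the library that stood apart, 6 were called. Adding zVAD to LPS in Ifnar1-/- cells lowered 1 member, beside 3.68% of all genes, 0 when any array of the comparison was left out, and 12 with the replicate block. Adding Nec-1 to LPS+zVAD in these cells raised 16 members, beside 11.1% of all genes, and 39 with the replicate block, but 6 were called without replicate 2 of LPS+zVAD+Nec-1, and 1 and 7 without replicates 1 and 2 of LPS+zVAD. The members' median in that comparison changed from 0.31 to -0.06 with the percentile shift. With the replicate block, zVAD added to LPS lowered 1687 of 16051 genes in these cells, and Nec-1 added to LPS+zVAD raised 3312.

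The difference between the genotypes in the response to LPS+zVAD was tested directly as a difference of changes. In it 16 members were higher in Ifnar1-/- cells, beside 11.3% of all genes, and by both scalings 2, Ndufaf1 and Ndufaf4, beside 7.95% of all genes. In the replicate block fit given below, 3228 of 16051 genes were higher and 1706 lower. The change of Ndufaf1 was higher by 1.25 in Ifnar1-/- cells (SE 0.23, adjusted p = 0.00127, and 1.34 with the percentile shift, adjusted p = 0.013). That of Ndufaf4 was higher by 1.55 (SE 0.32, adjusted p = 0.00274, and 1.59 with the percentile shift, adjusted p = 0.00603): it fell in WT cells, whereas in Ifnar1-/- cells it read 10.81 and 10.78 untreated and 11.18 and 11.19 with LPS+zVAD. Over 17 alternative settings and refits the difference was 1.17 to 1.34 for Ndufaf1 and 1.41 to 2.29 for Ndufaf4. The count of 16 was less steady: it was 8 and 9 without untreated WT replicates 1 and 2, 6 and 10 without untreated Ifnar1-/- replicates 1 and 2, 4 without WT LPS+zVAD replicate 2, and 10 and 6 without Ifnar1-/- LPS+zVAD replicates 1 and 2, and with the replicate block it was 36 higher and 1 lower.

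For the other treatments the differences of changes were fewer, and most did not hold on the percentile scale. By both scalings Atp5sl was higher for IFNb+zVAD and Cox6a2 lower for IFNb. The latter was -1.66 (limma adjusted p = 0.0405), and -1.65 with the percentile shift (adjusted p = 0.0247), and was not called in 9 of 17 alternatives. Atp5s was not called by the main fit. It was called with the percentile shift for LPS (1.48), IFNb (1.28) and IFNb+zVAD (1.25), and with the replicate block for each. For LPS 2 members were higher (Atp5sl and Ndufs7), beside 3.03% of all genes. With the replicate block 12 were higher and 2 lower, beside 1583 and 1118 of 16051 genes. For IFNb 8 were higher and 1 lower, beside 10.2% and 8.53%, and with the block 27 and 3, beside 3303 and 2118 genes. For IFNb+zVAD 10 were higher, beside 10.9%, and with the block 31 higher and 3 lower, beside 3382 and 2261 genes. The members' medians in the IFNb and IFNb+zVAD differences were 0.36 and 0.41 with quantile normalization and -0.07 and -0.09 with the percentile shift. These counts moved with single arrays. That for LPS was 0 without untreated WT replicate 2, WT LPS replicate 1 or Ifnar1-/- LPS replicate 1, 1 without either untreated Ifnar1-/- array or Ifnar1-/- LPS replicate 2, and 5 without WT LPS replicate 2. That for IFNb, 9 in all, was 4 and 2 without untreated WT replicates 1 and 2, 1 without untreated Ifnar1-/- replicate 1, 1 and 5 without WT IFNb replicates 1 and 2, and 5 and 3 without Ifnar1-/- IFNb replicates 1 and 2. That for IFNb+zVAD was 5 without either untreated WT array, 3 without untreated Ifnar1-/- replicate 1, 4 without WT IFNb+zVAD replicate 2, and 6 and 4 without Ifnar1-/- IFNb+zVAD replicates 1 and 2.

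The genotypes were also compared within a treatment, where slide and genotype cannot be told apart and the neutrophil and fibroblast marker sums were higher on every Ifnar1-/- array than on any WT array. In untreated cells 2 members were higher in Ifnar1-/- cells, beside 5.38% of all genes, and 0 when untreated WT replicate 2 or either untreated Ifnar1-/- array was left out. With LPS 41 (46.1%) were higher and 1 lower, beside 18.3% and 10.1%, and 6 higher by both scalings, beside 12.9% (Ndufaf2, Ndufaf4, Ndufaf7, Uqcrc1, Atp5s and Atp5sl). With LPS+zVAD 56 (62.9%) were higher and 1 lower, beside 25.7% and 11.7%, and 13 by both scalings, beside 19.2%. Among these 13 were the assembly factors Ndufaf1 (0.89 and 0.98), Ndufaf3 (1.21 and 1.28) and Ndufaf4 (1.85 and 1.90), and 8 complex I subunits. Cox6a2 with LPS (-1.73 and -1.76) and Cox6b2 with LPS+zVAD (-1.33 and -1.28) were lower in Ifnar1-/- cells. The LPS count of 42 was 11 without WT LPS replicate 1 and 20 and 14 without Ifnar1-/- LPS replicates 1 and 2, and the LPS+zVAD count of 57 was 30 without WT LPS+zVAD replicate 2 and 32 without Ifnar1-/- LPS+zVAD replicate 2.

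Genes that serve the same complexes but do not match the name pattern were examined as lists, whose counts are to be read against all genes called by both scalings: 25.4% lower and 17.3% higher in WT LPS+zVAD, 19.1% lower when zVAD was added to LPS, 15.4% higher when Nec-1 was added to LPS+zVAD, and 17.9% lower and 15.4% higher with LPS alone. The lists were chosen with earlier results of these data known, so their counts are a description and not independent evidence about the members. Of 7 further assembly factors of complex I, 6 were lower and 1 higher in WT LPS+zVAD by both scalings, with a median of -1.72 on each scale. The deepest falls were those of Acad9 (-2.61 with quantile normalization and -2.54 with the percentile shift), Tmem126b (-2.25 and -2.07), both of the complex that assembles the membrane arm with Ndufaf1, and Tmem186 (-2.04 and -1.76), while Timmdc1, another of these factors, rose (1.11 and 1.45). When zVAD was added to LPS 5 of the 7 were lower, and when Nec-1 was added to LPS+zVAD 5 were higher, by both scalings. Of 24 assembly factors of complexes II to V, 6 were lower and 3 higher by both scalings in WT LPS+zVAD, no larger a share than among all genes. Those lower included Sdhaf1, which matures Sdhb (-2.07 and -2.02), and Bcs1l, which inserts the Rieske protein (-1.39 with quantile normalization). Adding zVAD to LPS lowered 8 of them, and adding Nec-1 raised 9.

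Of 14 nuclear and mitochondrial regulators of transcription, 7 were lower and 1 higher in WT LPS+zVAD by both scalings, beside 25.4% and 17.3% of all genes. This list too was chosen with earlier results of these data known. Those lower included Polrmt, the mitochondrial RNA polymerase (-2.37 and -2.26), Tefm, its elongation factor (-2.28 and -1.98), Tfb1m (-1.97 and -1.84) and Tfam, which packages mitochondrial DNA (-0.99 and -0.95), and Gabpb1, a subunit of the ETS factor GABP, was higher (1.63 and 1.83). By both scalings 6 were lower when zVAD was added to LPS and 5 higher when Nec-1 was added to LPS+zVAD. For the mitochondrially encoded genes the scale decided the counts. Of 13 such genes 1 was lower and 1 higher with quantile normalization and 8 were higher with the percentile shift (medians -0.09 and 0.80), and only ND6 was higher by both (1.69 and 1.66). Cycs, cytochrome c, rose in WT LPS (2.44 and 2.94) and in WT LPS+zVAD (1.70 and 2.53), whereas Etfdh, which feeds electrons from fatty acid oxidation into the chain, was lower in WT LPS+zVAD (-1.41 and -1.31). Of 7 carriers 1, Ucp2, was lower by both scalings (-1.40 and -1.04).

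With LPS alone in WT cells the lists gave fewer calls that held by both scalings: 2 lower of the 7 complex I factors (Nubpl -1.12 and Tmem126b -1.08 with quantile normalization), 3 lower and 4 higher of the factors of complexes II to V (the largest rises were Cox18 with 2.07 and Sco1 with 1.99), and 2 lower and 3 higher of the regulators (Gabpb2 -1.27, Gabpb1 0.87 and Polrmt -0.80).

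The members' mean profile over the 32 arrays was compared with each of 15681 other genes on the quantile scale, as a description. The closest were 1700028B04Rik (r = 0.987), Elp3 (0.985), Ttc13 (0.982), Mtg1 (0.98) and Lsm7 (0.98), and all points share the slides and the normalization. Of the members themselves, Cox6b2 (-0.69), Cox4i2 (-0.60), Cox6a2 (-0.59), Ndufs4 (-0.05) and Ndufaf5 (-0.03) correlated negatively with the mean profile, and of the 29 members with several retained probes, Ndufv3, Atp5g1, Cox7c and Atp5l had probes that differed in sign in WT LPS+zVAD.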

How the data were processed

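RNA of each sample was hybridised to a mouse 1-colour Agilent array. The authors deposited the scanner files, whose processed signals are background-subtracted intensity values, and a table of log2 values that the authors made by keeping probes above background on at least 50% of arrays and quantile-normalizing. Here log2 of the processed intensity was taken, 130 to 499 outlier spots per array were set aside, spots of a probe were averaged, arrays were quantile-normalized, and probes well above background on at least 50% of the 32 arrays were kept (21478 of 33140 probes with a symbol; probe names and mm9 positions are from the scanner files). The brightest probe of each gene (16051 genes) entered limma 3.58.1 (R 4.3.3) with a mean for each of the 16 groups (16 residual degrees of freedom), and 27 contrasts were adjusted by Benjamini-Hochberg over all genes, with a threshold of 0.05. The fit was tested on simulated data. The number of arrays limits the precision.

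Groups came from the labels. Samples sharing a replicate number within a genotype share a slide and deviated together (28 of 28 pairs correlated above 0.1 in each genotype, with medians of 0.484 in WT and 0.439 in Ifnar1-/-), so the number pairs them, and the fit with it as a block is given where it moved a count by over 1.5 times. The members and gene lists were chosen with earlier results of these data known. Named members were, per complex, the 2 called with the largest rise and the 2 with the largest fall with LPS, LPS+zVAD or IFNb, the 5 called with the smallest adjusted p per difference of changes, the subunits with paralogs, complex II, the called core of complex I, and members called against their complex; other gene names come from lists and from the 5 most similar profiles. Alternatives were the 75th percentile shift, normexp (offset 50), other probe filters, the mean of probes, fits on the compared arrays alone, the replicate block, slide as a random block, the authors' table and leaving out arrays. Promoters are from RefSeq. The values of 1 gene are not reported here, though it is counted.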

Additional observations from a re-analysis of the deposited data

Results flagged for a closer look

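For 4 treatments the change from untreated was tested between the genotypes as a difference of changes (Ifnar1-/- minus WT, limma, quantile normalization, adjusted over all genes), and of the members called, 16 differences among those with the smallest adjusted p for each treatment are given. For LPS+zVAD these were Ndufaf1 (1.25, adjusted p = 0.00127), Ndufaf4 (1.55, adjusted p = 0.00274), Ndufab1 (0.92, adjusted p = 0.00369), Ndufb4 (1.08, adjusted p = 0.0043) and Sdha (0.82, adjusted p = 0.0106). With the percentile shift Ndufaf1 (1.34, adjusted p = 0.013) and Ndufaf4 (1.59, adjusted p = 0.00603) were still called, and Ndufab1 (0.73, adjusted p = 0.142), Ndufb4 (0.83, adjusted p = 0.113) and Sdha (0.55, adjusted p = 0.172) were not. For LPS the differences were those of Atp5sl (1.82, adjusted p = 0.0142, and with the percentile shift 1.80, adjusted p = 0.0541) and Ndufs7 (0.74, adjusted p = 0.0429, and with the percentile shift 0.48, adjusted p = 0.568).

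For IFNb they were Atp5sl (1.72, adjusted p = 0.0089, and with the percentile shift 1.51, adjusted p = 0.0679), Ndufs7 (0.77), Ndufa6 (1.04) and Sdha (0.63). With the percentile shift none of these was called, and Ndufs7 was 0.26 (adjusted p = 0.719), Ndufa6 0.59 (adjusted p = 0.51) and Sdha 0.10 (adjusted p = 0.881). Cox6a2, not among these, was lower by both scalings for IFNb (above). For IFNb+zVAD they were Atp5sl (1.99, adjusted p = 0.00329, and with the percentile shift 1.80, adjusted p = 0.0279), Ndufs7 (1.02), Ndufb10 (0.88), Ndufb11 (1.02) and Sdha (0.70). With the percentile shift Atp5sl alone of these was called, and Ndufs7 was 0.46 (adjusted p = 0.426), Ndufb10 0.29 (adjusted p = 0.587), Ndufb11 0.43 (adjusted p = 0.562) and Sdha 0.12 (adjusted p = 0.845). The Ifnar1-/- arrays lay on other slides than the WT arrays, but each change was taken within slides.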

How the results depend on the processing

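The scaling of the arrays had the widest effect. With the 75th percentile shift the counts of members called against untreated cells were 7 in WT LPS, 7 in WT IFNb, 30 in WT LPS+zVAD, 9 in WT IFNb+zVAD, 10 in WT LPS+zVAD+Nec-1, 6 in WT IFNb+zVAD+Nec-1, 3 in Ifnar1-/- LPS and 3 in Ifnar1-/- LPS+zVAD. The counts were 1 for the difference of changes with LPS, 3 with IFNb, 2 with LPS+zVAD and 2 with IFNb+zVAD, 21 for zVAD added to LPS in WT and 0 in Ifnar1-/-, 15 for Nec-1 added to LPS+zVAD in WT and 1 in Ifnar1-/-, and 0 (untreated), 7 (LPS) and 16 (LPS+zVAD) between genotypes. Of 91 changes of named members 48 lost their call and 6 changed sign: Sdha (0.028) and Uqcrh (0.033) in WT LPS, Cox5b (0.16) and Sdhb (0.032) in WT IFNb, and Cox5a (0.37) and Cox8a (0.39) in WT LPS+zVAD. A fit on the compared arrays alone, with fewer arrays to estimate the spread, gave in the same order 11, 7, 37, 6, 21, 1, 4 and 16 members against untreated, 0, 3, 3 and 4 in the differences, 1 and 0 for zVAD added, 0 and 0 for Nec-1 added, and 0, 1 and 9 between genotypes, and 50 of the named changes lost their call.

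The replicate block raised the counts of 10 of 24 comparisons by over 1.5 times, to 53 (WT IFNb), 42 (WT IFNb+zVAD+Nec-1), 20 (Ifnar1-/- LPS), 45 (Ifnar1-/- LPS+zVAD), 14, 30, 37 and 34 (differences with LPS, IFNb, LPS+zVAD and IFNb+zVAD), and in Ifnar1-/- 12 (zVAD added to LPS) and 39 (Nec-1 added), and it changed no other count so far and no call of 88 named changes. The named changes were picked because they were called, so their kept calls are not a check of the block. Changes not called could move, as did Ndufs3 in WT IFNb (limma adjusted p = 0.0541, and 0.0231 with the block). In these 10 comparisons the block also raised the counts of all genes, so the rise is not particular to the members. The authors' table, which tested 83 members and correlated with the values used here by at least 0.983 on each array, gave 20 (WT IFNb), 22 (WT IFNb+zVAD), 1, 3, 6 and 6 (the differences in the order above), 21 (zVAD added in WT), 16 and 9 (Nec-1 added in WT and Ifnar1-/-), and 0, 27 and 34 between genotypes. With normexp the difference with LPS gave 1, that with LPS+zVAD 10, and the untreated genotypes 1. Without a filter on dim probes the differences gave 1, 2, 10 and 4, Ifnar1-/- IFNb+zVAD+Nec-1 gave 1, zVAD added in Ifnar1-/- 0 and the untreated genotypes 1. With probes above background on every array Ifnar1-/- LPS gave 11, the differences with LPS and IFNb 6 and 14, and zVAD added in Ifnar1-/- 2. When both arrays of Ifnar1-/- LPS+zVAD+Nec-1 were left out the differences with LPS, IFNb and IFNb+zVAD gave 5, 14 and 17 and zVAD added in Ifnar1-/- 2. The mean of a gene's probes and slide as a random block moved no count by over 1.5 times.

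Leaving out an array at a time gave, against untreated cells, 0 to 1 members (WT zVAD), 25 to 39 (WT LPS), 16 to 24 (WT IFNb), 54 to 66 (WT LPS+zVAD), 18 to 34 (WT IFNb+zVAD), 26 to 29 (WT LPS+zVAD+Nec-1), 13 to 17 (WT IFNb+zVAD+Nec-1), 2 to 3 (Ifnar1-/- LPS), 7 to 18 (Ifnar1-/- LPS+zVAD) and 0 to 6 (Ifnar1-/- LPS+zVAD+Nec-1). The ranges were 0 to 5, 1 to 6, 4 to 20 and 3 to 11 for the differences, 10 to 35 (WT) and 0 to 0 (Ifnar1-/-) for zVAD added to LPS, 9 to 31 and 1 to 18 for Nec-1 added to LPS+zVAD, 0 to 3 for Nec-1 added to IFNb+zVAD in WT, and 0 to 2, 11 to 32 and 30 to 54 between untreated, LPS and LPS+zVAD genotypes; the other comparisons stayed at 0. A group left with 1 array was taken to vary like the others. Counts of all genes in these refits are not given here. Of 436 such refits of named changes 143 lost their call and 0 changed sign. In WT LPS+zVAD the calls of Ndufb8 (-2.02 to -1.33), Ndufs3 (-1.93 to -1.16) and Sdhb (-1.90 to -1.45) were kept in each.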
